A study of Mus musculus with 20 samples.

Results

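Enzymes and carriers of the tricarboxylic acid (TCA) cycle and of mitochondrial fatty acid oxidation were followed in plantaris muscle of old mice. The 41 genes were taken by name, from a list drawn up with earlier results of these data known, from the 22660 rows of the count table, and each name had 1 row. By role they are 4 genes of pyruvate dehydrogenase and its kinases, 17 of the TCA cycle, 6 of fatty acid binding, activation and import, 10 of beta-oxidation, 3 of electron transfer to ubiquinone and 1 uncoupling protein. All 41 passed the minimum of 10 counts in at least 5 mice in every comparison, and the lowest count of any of them in any mouse was 488, for Ucp3.

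RNA was sequenced from 20 mice labelled 2 years old, which the methods give as male C57BL/6J animals, in 4 groups of 5. MOV is mechanical overload of the plantaris, made by cutting away parts of the soleus and gastrocnemius on both sides, and sham surgery opened the skin alone. The senolytic D + Q combines dasatinib, which inhibits tyrosine kinases, at 5 mg/kg with the flavonoid quercetin at 50 mg/kg, and vehicle is polyethylene glycol. Per the labels mice of both treatments were gavaged on days 7 and 10, whereas the description of the study puts the second gavage of sham mice on day 14, and all muscles were taken on day 14. The groups, vehicle sham, vehicle MOV, D + Q sham and D + Q MOV, are of different animals. Each library is the plantaris RNA of 1 mouse, and whether it came from 1 muscle or both is not given in the sources used here. MOV was compared with sham to ask what overload changed in each treatment, and D + Q with vehicle to ask what the senolytic changed in overloaded and in resting muscle.

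Pyruvate dehydrogenase turns pyruvate from glycolysis into acetyl-CoA and is switched off by the pyruvate dehydrogenase kinases, so that muscle can burn fat in place of sugar. Fatty acids are bound and activated in the cytosol, enter the matrix as carnitine esters, and are shortened by beta-oxidation to acetyl-CoA, which the TCA cycle oxidizes. Both pathways pass electrons to the respiratory chain, and oxidative fibres hold more of these enzymes than fast glycolytic fibres, which make up most of the plantaris.

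Libraries held 17887532 to 26234518 counts. Levels are given as CPM, which scales counts to the library size with TMM factors over all 20 mice, and are listed for mice 1 to 5 of a group in that order. Log2 fold changes come from fits of each comparison on its own 10 mice and are given ± their standard error, and adjusted p-values are Benjamini-Hochberg values over all genes tested. Fibre genes were abundant in every mouse, with Acta1 at 16173 CPM or more and Myh4, the myosin of fast glycolytic fibres, between 50216 and 67447 CPM in sham muscle. The muscle fibre marker list (15 genes) had a median log2 fold change of -0.59 in vehicle and -0.71 in D + Q mice between MOV and sham, with 11 and 12 genes called lower. The fast glycolytic list (4 genes) had medians of -0.90 in both treatments, with all 4 genes called lower in each. Over the same comparisons the medians were 2.67 and 2.86 for 10 macrophage genes (9 and 10 called higher), 2.35 and 2.28 for 9 fibroblast genes (9 and 9 called higher), 0.69 and 0.58 for 10 endothelial genes (7 and 7 called higher, 0 and 1 called lower) and -1.22 and -0.85 for 5 adipocyte genes (4 and 2 called lower). Slow fibre genes (8) had medians of 1.80 and 2.43, with 5 and 7 called higher and 1 and 0 called lower, and developing fibre genes (5) of 3.53 and 4.49, with all 5 called higher in each. The type 2a and 2x fibre myosins Myh2 and Myh1 had medians of 0.54 and 0.36, with 1 of 2 called higher in each. Actn3 stands in both the muscle fibre and the fast glycolytic list. The summed level of the muscle fibre list ran from 146370 to 162810 CPM in vehicle sham and 91156 to 118040 CPM in vehicle MOV mice, and from 150870 to 165990 CPM in D + Q sham and 89656 to 108580 CPM in D + Q MOV mice. That of the fibroblast list ran from 441 to 641 CPM, 4707 to 9571 CPM, 525 to 1090.3 CPM and 8512 to 11556 CPM in the same order. Adipoq, which defines adipocytes, lay between 0.550 and 5.54 CPM. In whole muscle, fewer cells of a type and less RNA of a gene per cell cannot be told apart.

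In vehicle sham muscle the level per kilobase of the canonical transcript was highest for Fabp3, the fatty acid binding protein of heart and muscle, at 527 ± 67.9 CPM per kb (SD, n = 5). Mdh2, malate dehydrogenase, followed at 485 ± 46.7 CPM per kb, and Sdha, the flavoprotein of succinate dehydrogenase, at 357 ± 38.9 CPM per kb. The lowest levels were those of Suclg2, the GTP-forming succinyl-CoA synthetase subunit, at 22.8 ± 2.25 CPM per kb, of Cpt2, the inner carnitine palmitoyltransferase, at 26.6 ± 3.55 CPM per kb, and of Ucp3 at 34.3 ± 5.52 CPM per kb. In the order of the 41 genes, 35 of 40 neighbours lay within 1 SD of each other, Fabp3 and Mdh2 among them. The counts of the whole set made up 1.29% ± 0.119 of the total in vehicle sham, 1.07% ± 0.0757 in vehicle MOV, 1.26% ± 0.0584 in D + Q sham and 1.00% ± 0.0287 in D + Q MOV mice (SD, n = 5 each).

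Vehicle sham mouse 2 had the highest level of its group in 38 of the 41 genes, and vehicle sham mouse 4 the lowest in 29. Vehicle MOV mouse 2 was highest in 29 genes and vehicle MOV mouse 4 lowest in 27. The spread between mice was widest for Pdk4 in vehicle sham (coefficient of variation 33.7%) and for Ucp3 in vehicle MOV muscle (51.6%), against medians over the 41 genes of 9.85% and 11.3%. Exons of Cpt1b and Etfb share bases with a measured gene on the same strand and those of 19 others with one on the opposite strand, and whether the counting used strand is not given in the sources used here, so reads there cannot be assigned with certainty.

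Under TMM scaling, transcripts of almost every one of these genes were lower in overloaded muscle. Between vehicle MOV and vehicle sham muscle 41 of 41 genes had a negative log2 fold change under TMM scaling, 36 with total counts and 29 with scaling to fibre genes. Of the 41, 38 fell in edgeR's quasi-likelihood test (adjusted p under 0.05), where 29.8% of all 14601 genes tested were called lower. The 3 others were Pdk4, Idh2 and Fabp3. Between D + Q MOV and D + Q sham muscle 41 of 41 fell, where 30.9% of 14913 genes were called lower. The median log2 fold change of the set was -0.65 with vehicle, between -1.04 for Acadm and -0.14 for Pdk4, against -0.015 over all genes, and -0.66 with D + Q, between -1.59 for Ucp3 and -0.38 for Pdhb, against 0.023 over all genes. In 37 genes every vehicle MOV mouse lay below every vehicle sham mouse, where 22.6% of all genes did, and in 40 genes every D + Q MOV mouse lay below every D + Q sham mouse, where 26.5% did.

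**Figure D1:**
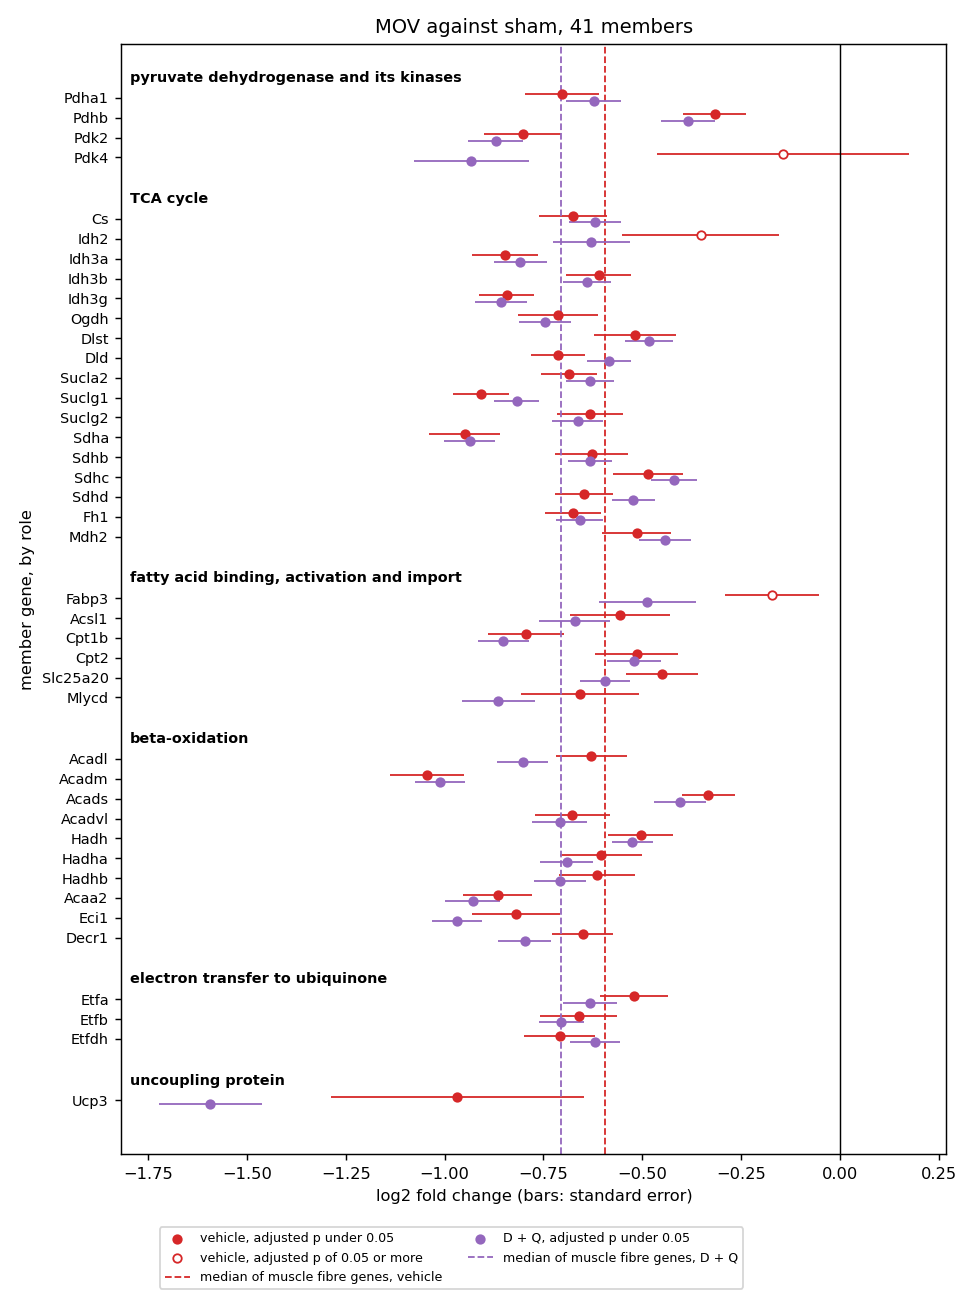
Log2 fold change between MOV and sham muscle (horizontal axis, bars are the standard error) of the 41 genes, grouped by role, with vehicle in red and D + Q in purple (5 mice a group). Filled points have an adjusted p under 0.05 and dashed lines mark the medians of the 15 muscle fibre genes, -0.59 with vehicle and -0.71 with D + Q. All points lie left of 0 under this TMM scaling (36 with vehicle under total counts, 29 with vehicle and 32 with D + Q under scaling to fibre genes), and 3 vehicle points, Pdk4, Idh2 and Fabp3, are open.

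The size of these falls depended on what the libraries were scaled to. With total counts only, the median over all genes itself lay at 0.36 with vehicle and 0.39 with D + Q, and relative to that median the set lay at -0.64 and -0.69, against -0.64 and -0.69 under TMM scaling. On that scale 26 genes were called lower with vehicle, 36 being lower and 5 higher (Pdhb, Pdk4, Idh2, Fabp3 and Acads), and 34 with D + Q, where 41 were lower. When libraries were scaled to the muscle fibre genes, a choice made after the data were seen, 9 genes were called lower and 2 higher with vehicle and 15 lower and 1 higher with D + Q. The median over all genes was then 0.53 with vehicle and 0.59 with D + Q, and relative to it the set lay at -0.64 and -0.69. Of all genes tested, 10033 of 14601 with vehicle and 11014 of 14913 with D + Q were then called in either direction. With total counts 9136 and 10046 of them were. The 9 were Pdk2, Idh3a, Idh3g, Suclg1, Sdha, Cpt1b, Acadm, Acaa2 and Eci1, with log2 fold changes between -0.52 and -0.27. The 15 were these same 9 with Pdk4, Ogdh, Mlycd, Acadl, Decr1 and Ucp3, with values between -1.04 and -0.19. Pdhb was the gene called higher in both treatments (0.22 and 0.18), and Fabp3 with vehicle alone. What part the lower level of these 15 genes has in the change of a single gene was not tested beyond this scaling. Of the 15, 13 were lower and 2 higher in each treatment under TMM scaling. The list includes genes of fast fibres, such as Actn3, whereas the slow and developing fibre lists had positive medians. Whether the 15 genes stand for the share of all fibre RNA was not tested.

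The mean log2 CPM of the set in each mouse minus that of the 15 muscle fibre genes ran from -4.91 to -4.48 in vehicle sham, -4.98 to -4.79 in vehicle MOV, -4.93 to -4.65 in D + Q sham and -5.03 to -4.83 in D + Q MOV mice. The 4 ranges overlapped, and the means were -4.77 ± 0.18, -4.88 ± 0.091, -4.81 ± 0.10 and -4.95 ± 0.079 in that order (SD, n = 5 each). The set's own mean log2 CPM was 8.14 ± 0.13, 7.49 ± 0.16, 8.11 ± 0.075 and 7.37 ± 0.067 in the same order (SD, n = 5 each), and the muscle fibre genes were at 12.9 ± 0.063, 12.4 ± 0.14, 12.9 ± 0.031 and 12.3 ± 0.13.

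**Figure D2:**
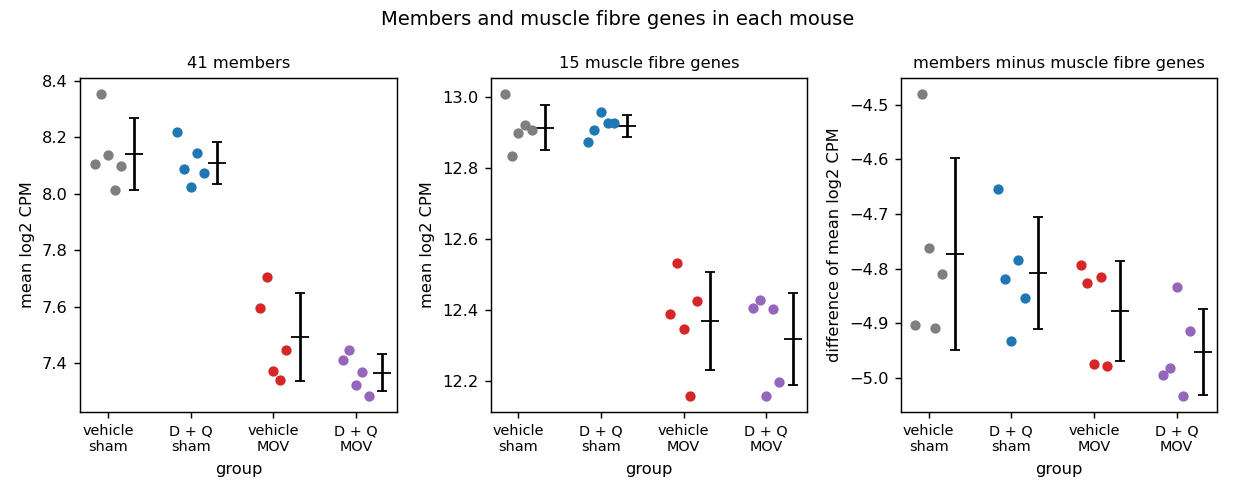
Mean log2 CPM in each mouse of the 41 genes (left) and of the 15 muscle fibre genes (middle), and the left value minus the middle one (right), by group. Points are mice and black marks the mean with its SD (n = 5). The MOV mice lie below all sham mice in the left and middle panels, and in the right panel the ranges of the groups overlap.

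Pyruvate dehydrogenase and its kinases: both subunits of the E1 enzyme and the kinase Pdk2 fell with MOV in each treatment, and Pdk4 fell in D + Q mice. Positions are given in GRCm39. Pdk4, the kinase that fasting and fat induce (chromosome 6, 5483097 to 5496339, minus strand), was at 362, 434, 382, 411 and 743 CPM in vehicle sham and 367, 765, 242, 365 and 363 CPM in vehicle MOV mice. Mouse 5 of the sham group and mouse 2 of the MOV group stood high and the groups overlapped (log2 fold change -0.14 ± 0.32, edgeR adjusted p = 0.718). The value was 0.086 without the first and -0.45 without the second, and Pdk4 passed the threshold in neither case. With D + Q, Pdk4 was at 818, 644, 566, 744 and 573 CPM in sham and 444, 349, 266, 339.9 and 306 CPM in MOV mice. Every D + Q MOV mouse lay below every D + Q sham mouse (log2 fold change -0.93 ± 0.15, edgeR adjusted p = 0.000157). Pdk2, the kinase with the broadest tissue range, was at 460.5, 541, 466, 439.9 and 426 CPM in vehicle sham and 304, 302, 231, 229 and 265 CPM in vehicle MOV mice, and its log2 fold changes were -0.80 with vehicle and -0.87 with D + Q. The groups did not overlap. Pdhb, the beta subunit of E1, was at 292, 272, 241, 237 and 274 CPM in D + Q sham and 183, 211, 186, 206 and 195 CPM in D + Q MOV mice, the smallest fall of the set with D + Q (log2 fold change -0.38 ± 0.068, edgeR adjusted p = 7.87e-05). With vehicle it fell by 0.32 on the log2 scale, and under scaling to fibre genes its sign turned in both. Pdha1, the alpha subunit, had -0.70 and -0.62.

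TCA cycle: 16 of the 17 genes fell with vehicle and 17 of 17 with D + Q under TMM scaling. Of all genes tested, 29.8% and 30.9% were called lower. The median log2 fold changes of the group were -0.67 and -0.63. Cs, citrate synthase, which condenses acetyl-CoA with oxaloacetate (chromosome 10, 128172837 to 128198363, plus strand), was at 949, 1015, 877, 836 and 845 CPM in vehicle sham and 609, 603, 521, 491 and 595 CPM in vehicle MOV mice. All 5 MOV mice lay below the lowest sham mouse (log2 fold change -0.67 ± 0.086, edgeR adjusted p = 8.6e-06). In D + Q mice Cs was at 915, 792, 806, 787 and 819.9 CPM in sham and 532, 568, 475, 516 and 517 CPM in MOV muscle, again without overlap (log2 fold change -0.62 ± 0.066, edgeR adjusted p = 2.14e-07). Sdha fell most of the cycle's genes in both treatments. It was at 1078, 1293, 1084, 969.5 and 1054 CPM in vehicle sham and 598, 603, 544, 489.9 and 588 CPM in vehicle MOV mice, and at 1124, 1027, 969, 1021 and 1053 and 537, 559.8, 498, 558 and 489.6 CPM in D + Q sham and D + Q MOV mice. All 10 MOV mice lay below all 10 sham mice, and the log2 fold changes were -0.95 and -0.94. Idh2, the NADP-linked mitochondrial isocitrate dehydrogenase, changed least with vehicle and was at 294, 364, 306, 250.0 and 324 CPM in sham and 348, 279, 189, 230.4 and 153 CPM in MOV mice. Vehicle MOV mice 1 and 2 lay within the range of the sham mice (log2 fold change -0.35 ± 0.20, edgeR adjusted p = 0.149), and without MOV mouse 1 Idh2 was called lower (log2 fold change -0.51, edgeR adjusted p = 0.019). With D + Q, Idh2 was at 375, 265, 319, 416 and 359 CPM in sham and 230.3, 217, 236, 207 and 202 CPM in MOV mice, which did not overlap (log2 fold change -0.63 ± 0.10, edgeR adjusted p = 4.84e-05).

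The subunits of the NAD-linked isocitrate dehydrogenase Idh3a, Idh3b and Idh3g, which catalyse the same step for the cycle, had log2 fold changes of -0.85, -0.61 and -0.84 with vehicle and -0.81, -0.64 and -0.86 with D + Q. Of the 2-oxoglutarate dehydrogenase complex, Ogdh, Dlst and Dld had -0.71, -0.52 and -0.71 with vehicle and -0.74, -0.48 and -0.58 with D + Q. The succinyl-CoA synthetase genes Sucla2, Suclg1 and Suclg2 had -0.69, -0.91 and -0.63 with vehicle and -0.63, -0.82 and -0.66 with D + Q. All of these fell in both treatments under TMM scaling, whereas Dlst was called in neither with total counts. With scaling to fibre genes Idh3a, Idh3g and Suclg1 were called lower in both treatments and Ogdh with D + Q alone. On that scale Idh3b, Dlst, Dld, Sucla2 and Suclg2 were called in neither, and Dlst turned positive (0.0080 and 0.081). Among the other succinate dehydrogenase subunits, Sdhb had -0.63 and -0.63 and Sdhd -0.65 and -0.52. Sdhc, a membrane anchor of the complex, fell least of the cycle with D + Q, from 275, 260.3, 246, 232 and 248 CPM in sham to 175, 192, 176, 187 and 188 CPM in MOV mice (log2 fold change -0.42 ± 0.058, edgeR adjusted p = 5.61e-06), and had -0.49 with vehicle. Fh1, fumarase, had -0.67 and -0.66, and Mdh2 -0.51 and -0.44. Sdhc and Mdh2 were called in neither treatment with total counts, and their signs turned in both with scaling to fibre genes.

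Fatty acid binding, activation and import: 5 of the 6 genes fell with vehicle and 6 of 6 with D + Q under TMM scaling. Of all genes tested, 29.8% and 30.9% were called lower. The medians of the group were -0.54 and -0.63. Cpt1b, the muscle carnitine palmitoyltransferase that sets the rate of entry into mitochondria (chromosome 15, 89300606 to 89310239, minus strand), was at 328, 369.7, 331, 320.0 and 311 CPM in vehicle sham and 219, 223, 180.3, 157 and 173 CPM in vehicle MOV mice. The groups did not overlap (log2 fold change -0.79 ± 0.10, edgeR adjusted p = 5.27e-06). In D + Q mice it was at 356, 325, 322, 355 and 316 CPM in sham and 182, 199, 178, 184 and 159.8 CPM in MOV muscle, also without overlap (log2 fold change -0.85 ± 0.065, edgeR adjusted p = 4e-09). Its exons share 2744 bases with the annotated gene Gm44502 on the same strand, so reads there could have been assigned to either gene. Fabp3 (chromosome 4, 130202388 to 130209259, plus strand) was at 398, 523, 453, 406 and 389 CPM in vehicle sham and 409.6, 491, 311, 366 and 340.1 CPM in vehicle MOV mice, and at 478, 506, 367, 534 and 388 and 372, 333, 326, 254 and 295 CPM in D + Q sham and D + Q MOV mice. Vehicle MOV mice 1 and 2 lay within the sham range and the other 3 below it (log2 fold change -0.17 ± 0.12, edgeR adjusted p = 0.23), and without MOV mouse 2 Fabp3 was called lower (log2 fold change -0.25, edgeR adjusted p = 0.0472). In D + Q mice the highest MOV mouse lay above the lowest sham mouse (log2 fold change -0.49 ± 0.12, edgeR adjusted p = 0.00359). With D + Q the Fabp3 call was lost with total counts (log2 fold change -0.12). The table also holds a row named as a Fabp3 pseudogene, and reads of close copies are uncertain.

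Mlycd, malonyl-CoA decarboxylase, which removes the inhibitor of Cpt1b, fell most of this group with D + Q, from 116, 102, 104, 144 and 101 CPM in sham to 64.6, 63.4, 60.7, 60.4 and 54.1 CPM in MOV mice (log2 fold change -0.86 ± 0.092, edgeR adjusted p = 7.09e-07). With vehicle it had -0.66. Acsl1, the long-chain acyl-CoA synthetase, had -0.56 and -0.67, Cpt2 -0.51 and -0.52, and Slc25a20, the carnitine-acylcarnitine carrier of the inner membrane, -0.45 and -0.59 with vehicle and with D + Q.

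Beta-oxidation: under TMM scaling all 10 genes fell in both treatments and MOV and sham mice overlapped in none. Of all genes tested, 29.8% with vehicle and 30.9% with D + Q were called lower. In 22.6% and 26.5% every MOV mouse lay below every sham mouse. The medians of the group were -0.64 and -0.75. Acadm, the medium-chain acyl-CoA dehydrogenase (chromosome 3, 153627989 to 153650317, minus strand), had the largest fall of the 41 genes with vehicle. It was at 444, 515, 433, 410.5 and 423 CPM in vehicle sham and 238, 247, 206, 183 and 199 CPM in vehicle MOV mice (log2 fold change -1.04 ± 0.093, edgeR adjusted p = 2.8e-07). In D + Q mice it was at 432, 403, 404, 470.1 and 395 CPM in sham and 200.2, 215, 205, 209 and 186 CPM in MOV muscle (log2 fold change -1.01 ± 0.064, edgeR adjusted p = 4.18e-10). The highest MOV mouse of either treatment was well under the lowest sham mouse. Acads, the short-chain dehydrogenase, fell least, from 72.4, 85.3, 77.1, 69.5 and 72.5 CPM in vehicle sham to 57.5, 60.0, 59.2, 62.6 and 58.4 CPM in vehicle MOV mice. It also fell least of the group with D + Q, from 87.2, 80.5, 69.2, 76.8 and 73.0 CPM in sham to 56.9, 60.7, 58.0, 56.1 and 52.7 CPM in MOV muscle. Its log2 fold changes were -0.33 with vehicle and -0.40 with D + Q, and with vehicle its sign turned with total counts (0.046).

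The long-chain dehydrogenases Acadl and Acadvl had log2 fold changes of -0.63 and -0.68 with vehicle and -0.80 and -0.71 with D + Q. Hadha and Hadhb, the subunits of the trifunctional protein, moved alike, at -0.60 and -0.61 with vehicle and -0.69 and -0.71 with D + Q. They lie on opposite strands with 932 exon bases in common. A further row is named as a Hadhb pseudogene, and reads of close copies are uncertain. Hadh, the short-chain 3-hydroxyacyl-CoA dehydrogenase, had -0.50 and -0.52, and Acaa2, the thiolase, -0.87 and -0.93. The auxiliary enzymes for unsaturated fatty acids, Eci1 and Decr1, had -0.82 and -0.65 with vehicle and -0.97 and -0.80 with D + Q.

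Electron transfer to ubiquinone and uncoupling: Etfa and Etfb, the electron transfer flavoprotein, and Etfdh, its dehydrogenase, carry electrons from acyl-CoA dehydrogenases to ubiquinone. Under TMM scaling all 3 fell in both treatments without overlap. Of all genes tested, 29.8% with vehicle and 30.9% with D + Q were called lower. In 22.6% and 26.5% every MOV mouse lay below every sham mouse. Etfdh, the largest fall of the 3 with vehicle and the smallest with D + Q, was at 156, 185, 155, 152 and 150.5 CPM in vehicle sham and 108, 111, 97.0, 82.0 and 88.5 CPM in vehicle MOV mice (log2 fold change -0.71 ± 0.09, edgeR adjusted p = 8.55e-06). With D + Q it was at 160.5, 147, 129, 145 and 147 CPM in sham and 92.4, 97.1, 97.1, 84.3 and 91.0 CPM in MOV muscle (log2 fold change -0.62 ± 0.063, edgeR adjusted p = 1.38e-07). Etfa was at 207, 258, 219, 197 and 201 CPM in vehicle sham and 153, 170.1, 145, 132 and 151 CPM in vehicle MOV mice (log2 fold change -0.52 ± 0.087, edgeR adjusted p = 0.000109), and had -0.63 with D + Q. Etfb was at 165, 153, 141, 159 and 144 CPM in D + Q sham and 93.4, 93.1, 91.3, 87.7 and 89.9 CPM in D + Q MOV mice (log2 fold change -0.70 ± 0.056, edgeR adjusted p = 6.79e-09), and had -0.66 with vehicle. Its exons share 617 bases with Etfbl on the same strand.

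Ucp3, the uncoupling protein of skeletal muscle, which rises when fatty acids are plentiful (chromosome 7, 100122136 to 100135976, plus strand), was at 82.3, 110.0, 89.8, 87.8 and 119 CPM in vehicle sham and 44.3, 92.0, 22.8, 39.7 and 50.2 CPM in vehicle MOV mice. Vehicle MOV mouse 2, also the mouse with the most Pdk4 in its group, lay within the sham range and the other 4 below it (log2 fold change -0.97 ± 0.32, edgeR adjusted p = 0.0266). Without vehicle MOV mouse 1, 4 or 5, or vehicle sham mouse 2 or 5, the adjusted p lay between 0.0533 and 0.0731, and the log2 fold change was between -1.28 and -0.77 with any 1 mouse left out. In D + Q mice Ucp3 was at 131, 105, 119, 112 and 118 CPM in sham and 52.2, 38.5, 31.9, 33.2 and 32.9 CPM in MOV muscle. These groups lay far apart and Ucp3 had the largest fall of the set (log2 fold change -1.59 ± 0.13, edgeR adjusted p = 4.96e-07).

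**Figure D3:**
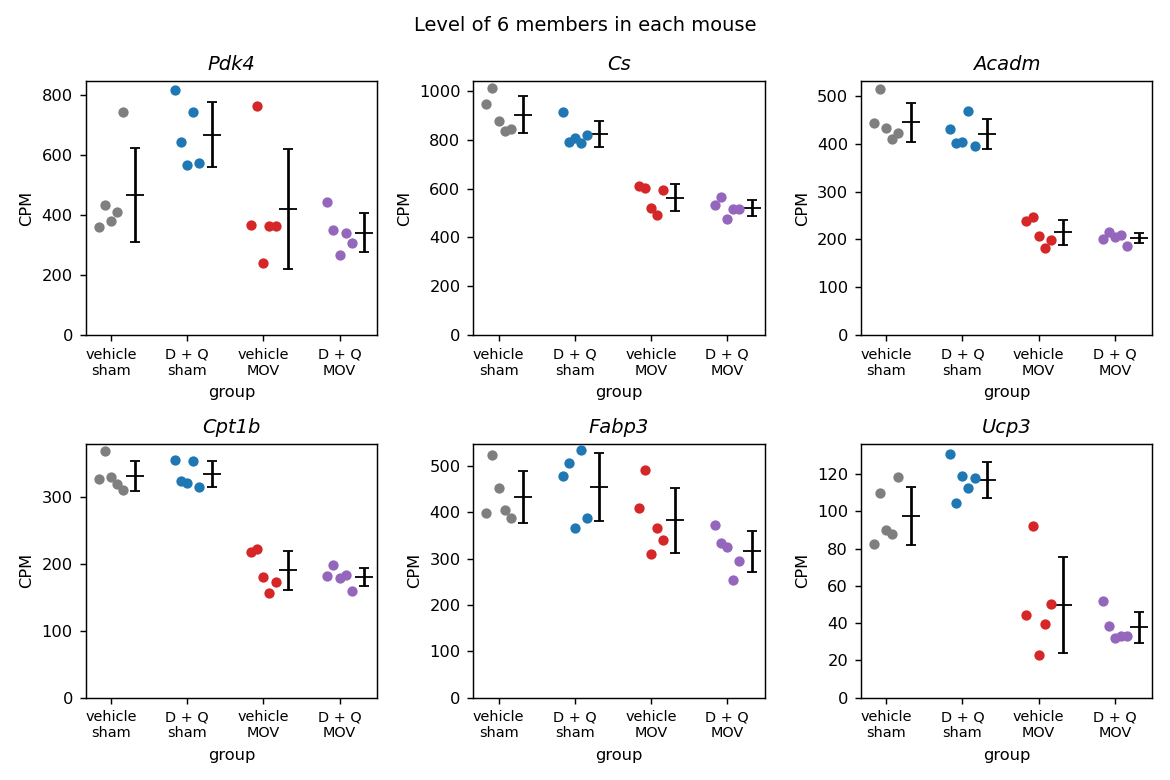
CPM of Pdk4, Cs, Acadm, Cpt1b, Fabp3 and Ucp3 in each mouse by group, with the vertical axes starting at 0. Points are mice 1 to 5 from left to right and black marks the mean with its SD (n = 5). Cs, Acadm and Cpt1b separate MOV from sham in both treatments, whereas single vehicle mice stand high for Pdk4 (743 CPM in sham, 765 CPM in MOV) and Ucp3 (92.0 CPM in MOV).

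Promoter sequences are shown for the genes at the ends of the range of the MOV comparisons. The 250 bases before the start are from RefSeq (GRCm38.p6) and are written 5′ to 3′ on the strand of the gene, with matches to the searched letters in capitals. Acadm had the largest fall with vehicle, Pdk4 the smallest, and Ucp3, added after its values were seen, the largest with D + Q. They lie at chr3:153944644-153944893 (minus strand), chr6:5496279-5496528 (minus strand) and chr7:100472741-100472990 (plus strand).
Acadm: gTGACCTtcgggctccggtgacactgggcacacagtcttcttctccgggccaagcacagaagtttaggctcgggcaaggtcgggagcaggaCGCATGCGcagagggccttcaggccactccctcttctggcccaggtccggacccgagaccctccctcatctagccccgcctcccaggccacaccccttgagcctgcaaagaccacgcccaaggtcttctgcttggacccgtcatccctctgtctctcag
Pdk4: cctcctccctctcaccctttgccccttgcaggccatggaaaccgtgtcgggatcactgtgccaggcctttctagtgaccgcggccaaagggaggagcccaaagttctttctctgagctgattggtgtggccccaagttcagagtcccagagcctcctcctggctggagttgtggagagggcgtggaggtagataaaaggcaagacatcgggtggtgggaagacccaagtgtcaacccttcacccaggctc
Ucp3: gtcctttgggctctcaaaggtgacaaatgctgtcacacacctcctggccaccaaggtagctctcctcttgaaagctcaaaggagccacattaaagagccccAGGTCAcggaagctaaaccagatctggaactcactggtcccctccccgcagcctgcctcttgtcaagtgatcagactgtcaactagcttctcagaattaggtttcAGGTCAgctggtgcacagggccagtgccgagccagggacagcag
Searched on both strands were AGGTCA (half-site of nuclear receptors), TNAAGGTCA (element of oestrogen-related receptors, which contains the half-site), CGCANGCG (core of the NRF1 site) and CCGGAAG (ETS factors such as GABPA). In the window of Acadm the capitals are a half-site on the minus strand, read as TGACCT, and an NRF1 core, in that of Ucp3 they are 2 half-sites, and in that of Pdk4 none of these letters occurred. Of the 41 genes 36 had an entry (not Idh3a, Sdhc, Cpt1b, Acaa2 and Decr1). AGGTCA stood in 6 of the 36 windows (16.7%), against 11.5% of 14237 genes of the table with an entry, and CGCANGCG in 9 (25%), against 11.6%. CCGGAAG stood in 5 (13.9%), against 11.3%, and TNAAGGTCA in 0, against 0.73%. A match is a run of letters and no evidence of binding.

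In overloaded muscle, D + Q against vehicle gave lower values throughout the set but 0 calls. All 41 genes had a negative log2 fold change under TMM scaling, 40 with total counts (not Suclg1) and 39 with scaling to fibre genes (not Sucla2 and Suclg1). Without vehicle MOV mouse 1 Idh2 turned positive, and without vehicle MOV mouse 2 Pdk4 did. The median was -0.14 against 0.0020 over all genes, and the values lay between -0.41 for Ucp3 and -0.047 for Suclg1. At an adjusted p under 0.05 in edgeR 0 were called in either direction, where 0% of 15238 genes were. DESeq2 and limma-voom called 0 of the 41 too, and 11 and 0 of all genes. The paper, which also used DESeq2 with a threshold of 0.05, reports far more differentially expressed genes in this comparison than the 11 of DESeq2 here. It places the TCA cycle among the most downregulated pathways. Why the results differ was not tested. At an unadjusted p under 0.05, 6 were lower, where 4.61% of all genes were, and 0 were higher, where 4.19% were. In 0 of the 41 genes did every D + Q mouse lie below every vehicle mouse, where 0.591% of all genes did. The count of 6 depended on the setting and on single mice. It was 9 with DESeq2, 10 with limma-voom or upper-quartile factors, 3 with total counts and 1 with scaling to muscle fibre genes. It ran from 3 to 21 when 1 mouse was left out. It was 21 without vehicle MOV mouse 4, the lowest of its group in most genes, and 3 without vehicle MOV mouse 1 or 2 or D + Q MOV mouse 5. Over all genes tested, the number at an unadjusted p under 0.05 in either direction moved as well. It was 1340 in the main fit, 1763 with limma-voom, 1133 with total counts, 656 with scaling to fibre genes and 2634 without vehicle MOV mouse 4.

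The 6 genes were Pdhb, Etfa, Dlst, Hadh, Fabp3 and Sdhd. Pdhb, at 211, 242, 235, 201 and 248 CPM in vehicle MOV and 183, 211, 186, 206 and 195 CPM in D + Q MOV mice, had the smallest p (log2 fold change -0.23 ± 0.082, edgeR unadjusted p = 0.0147, adjusted p = 0.523). Vehicle MOV mice 1 and 4 lay within the range of the D + Q mice. Etfa was at 153, 170.1, 145, 132 and 151 and 135, 138, 126, 134 and 122 CPM (log2 fold change -0.21 ± 0.078, edgeR unadjusted p = 0.0177, adjusted p = 0.523). Dlst, the succinyl transferase of the 2-oxoglutarate dehydrogenase complex, was at 209, 226, 183, 172 and 229.8 and 169.7, 181, 177, 181 and 168 CPM (log2 fold change -0.23 ± 0.089, edgeR unadjusted p = 0.0202, adjusted p = 0.523). In each gene at least 1 vehicle mouse lay within the range of the D + Q mice. Hadh was at 136, 139, 117, 120.5 and 116 and 114, 117, 109.7, 113 and 110.1 CPM (log2 fold change -0.17 ± 0.072, edgeR unadjusted p = 0.0284, adjusted p = 0.547). Fabp3, whose values stand above, had the next smallest p (log2 fold change -0.29 ± 0.13, edgeR unadjusted p = 0.0355, adjusted p = 0.547), and its log2 fold change was -0.19 without vehicle MOV mouse 2. Sdhd was at 159, 162, 152, 149.6 and 153 CPM in vehicle MOV and 132, 151, 147, 140.0 and 138 CPM in D + Q MOV mice (log2 fold change -0.15 ± 0.066, edgeR unadjusted p = 0.0418, adjusted p = 0.549), and vehicle mouse 4 alone lay below the highest D + Q mouse. The muscle fibre list had a median of -0.079 in this comparison, with 11 of 15 genes lower and 0 called. Of the fibre type lists, Myh2 and Myh1 had a median of -0.30, both lower and 1 at an unadjusted p of 0.022 in edgeR, the slow fibre genes had -0.053, with 7 of 8 lower, and the fast glycolytic genes had 0.12, with 4 of 4 higher, and 0 of these were called. The fibroblast list had 0.31, with 9 of 9 higher and 4 at an unadjusted p under 0.05, and the macrophage list 0.23, with 9 of 10 higher. Their part in the lower values of the set was not tested.

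**Figure D4:**
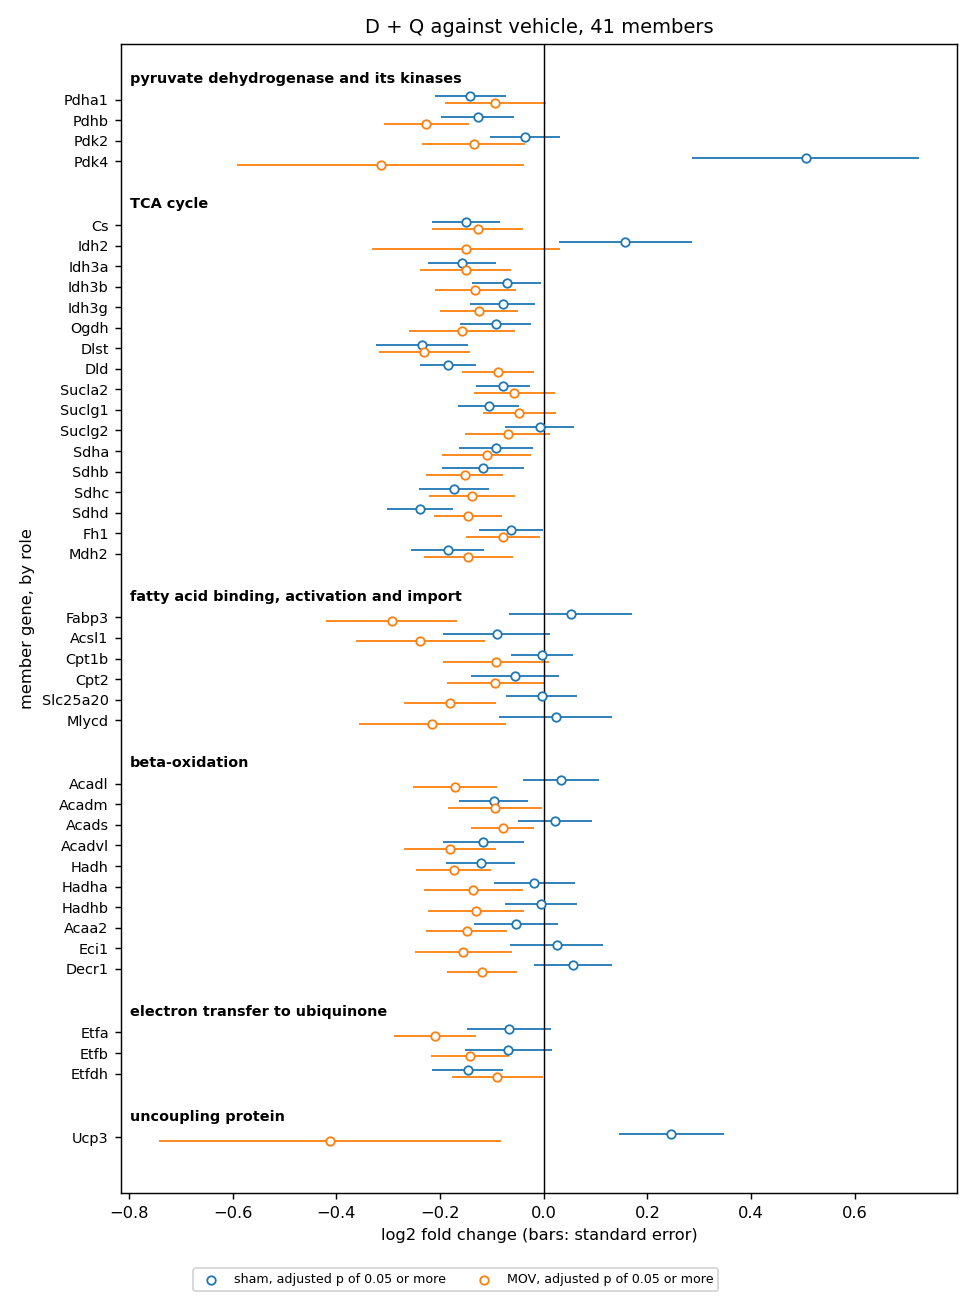
Log2 fold change with D + Q relative to vehicle (horizontal axis, bars are the standard error) of the 41 genes by role, in sham muscle in blue and in MOV muscle in orange (5 mice a group). All points are open, since no adjusted p was under 0.05. All MOV points lie left of 0 under this TMM scaling (40 with total counts, 39 with scaling to fibre genes), and in sham muscle Pdk4 (0.50) and Ucp3 (0.25) lie farthest to the right.

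In resting muscle, D + Q against vehicle gave small differences of both signs. Of the 41 genes 32 were lower and 9 higher (27 and 14 with total counts, 28 and 13 with scaling to fibre genes), with a median of -0.072 against -0.0041 over all genes. In edgeR 0 had an adjusted p under 0.05 in either direction, where 0.215% of 13926 genes did. DESeq2 called 2 lower, Dld and Sdhd (adjusted p = 0.0496 each from DESeq2), where it called 133 of the 13926 in either direction. Limma-voom called 0 of the 41 and 34 of all genes. At an unadjusted p under 0.05, 8 were lower, where 4.8% of all genes were, and 2 higher, where 5.39% were. Of the 8 lower genes 7 belong to the TCA cycle (Cs, Idh3a, Dlst, Dld, Sdhc, Sdhd and Mdh2) and the other is Etfdh. Without vehicle sham mouse 2, 20 genes were lower and 21 higher, with 3 and 1 under the unadjusted threshold, and the median was 0.00042. Over the 10 fits that each leave out 1 mouse, the genes lower ran from 20 to 37, and those lower at an unadjusted p under 0.05 from 2 without D + Q sham mouse 4 to 13 without D + Q sham mouse 1, with 12 without vehicle sham mouse 4. Those higher at that threshold ran from 0 to 2. Over all genes tested, 1420 were under it in either direction with all mice. There were 1297 without D + Q sham mouse 4, 1516 without D + Q sham mouse 1 and 1494 without vehicle sham mouse 4.

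Sdhd, a membrane anchor of succinate dehydrogenase, was at 237, 284, 246, 222 and 231 CPM in vehicle sham and 216, 208, 215, 203 and 203 CPM in D + Q sham mice. It was the 1 gene of the set in which every D + Q sham mouse lay below every vehicle sham mouse, where 0.697% of all genes did (log2 fold change -0.24 ± 0.063, edgeR unadjusted p = 0.00144, adjusted p = 0.167). Dld, the dihydrolipoamide dehydrogenase that pyruvate and 2-oxoglutarate dehydrogenases share, was at 287, 306, 287, 260.3 and 287 CPM and 265, 257, 247, 244 and 256 CPM (log2 fold change -0.19 ± 0.054, edgeR unadjusted p = 0.0029, adjusted p = 0.22). D + Q sham mouse 1 lay above vehicle sham mouse 4. Mdh2 was at 714, 852, 711, 688 and 679.6 CPM and 721, 640.2, 643, 582 and 652 CPM (log2 fold change -0.19 ± 0.071, edgeR unadjusted p = 0.0177, adjusted p = 0.377). Dlst was at 281, 361, 293, 246 and 286 CPM and 284, 256, 233, 239 and 248 CPM (log2 fold change -0.23 ± 0.089, edgeR unadjusted p = 0.0192, adjusted p = 0.39), and Sdhc at 276, 329, 276, 259.7 and 266 CPM and 275, 260.3, 246, 232 and 248 CPM (log2 fold change -0.17 ± 0.068, edgeR unadjusted p = 0.0208, adjusted p = 0.394). In all of these vehicle sham mouse 2 was the highest of the 10 mice. Without that mouse the log2 fold change was -0.17 for Sdhd, -0.15 for Dld, -0.12 for Mdh2, -0.14 for Dlst and -0.10 for Sdhc. Of the other 3 genes, Cs went from -0.15 to -0.099, Idh3a from -0.16 to -0.11 and Etfdh from -0.15 to -0.082.

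Pdk4 and Ucp3 were the 2 genes with higher values in D + Q sham mice at an unadjusted p under 0.05. For Pdk4 (log2 fold change 0.50 ± 0.22, edgeR unadjusted p = 0.0489, adjusted p = 0.485) vehicle sham mouse 5, at 743 CPM, lay among the D + Q sham mice while the other 4 vehicle mice lay below all of them. Without that mouse Pdk4 was called higher (log2 fold change 0.74, edgeR adjusted p = 0.0153). For Ucp3 (log2 fold change 0.25 ± 0.10, edgeR unadjusted p = 0.0316, adjusted p = 0.434) the highest vehicle sham mouse again was mouse 5. The endothelial list had a median of 0.086 and the fibroblast list of 0.39 in this comparison, with 9 of 9 fibroblast genes higher, 5 with an unadjusted p under 0.05 and 0 called. The muscle fibre list had 0.0010, with 7 of 15 lower. The slow fibre genes had -0.55, with 7 of 8 lower and the smallest unadjusted p at 0.12 in edgeR. The fast glycolytic genes had 0.15, with 4 of 4 higher and 1 at an unadjusted p of 0.0492 in edgeR, and Myh2 and Myh1 had -0.089, both lower. The part of fibre types in the values of the set was not tested.

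The interaction asks whether the change with MOV differed between D + Q and vehicle mice, and it is negative where the fall was larger with D + Q. In edgeR 0 of the 41 genes had an adjusted p under 0.05 in either direction, where 0.0127% of 15700 genes did, and DESeq2 and limma-voom called 0 as well. Of the 41, 30 were negative and 11 positive, and at an unadjusted p under 0.05 there was 1 negative gene, where 3.17% of all genes were, and 0 positive, where 2.54% were. The signs rested on single mice. Without vehicle sham mouse 2 there were 38 negative and 3 positive genes, with 4 negative under 0.05, and without vehicle MOV mouse 4 also 38 and 3, with 3 under 0.05. Without D + Q sham mouse 1 or vehicle sham mouse 4 there were 27 and 14, with 0 under 0.05. Over all genes tested, 897 were under 0.05 in either direction with all mice. There were 963 without vehicle sham mouse 2 and 1232 without vehicle MOV mouse 4. Of the 41, the gene under 0.05 with all mice was Pdk4, whose interaction was -0.82 ± 0.37 on the log2 scale (edgeR unadjusted p = 0.0404, adjusted p = 0.855). Its value lay between -1.05 and -0.51 when 1 mouse was left out, with -0.51 without vehicle MOV mouse 2, and the count of genes under 0.05 then ran from 0 to 4, with 0 in 9 of the 20 such fits. The next smallest p were those of Fabp3 at -0.35 ± 0.18 on the log2 scale (edgeR unadjusted p = 0.0668, adjusted p = 0.855) and of Acadl at -0.21 ± 0.11 on the log2 scale (edgeR unadjusted p = 0.0707, adjusted p = 0.855). Ucp3 followed at -0.66 ± 0.36 on the log2 scale (edgeR unadjusted p = 0.0833, adjusted p = 0.862), and at -0.34 without vehicle MOV mouse 2. Decr1 was at -0.18 ± 0.10 on the log2 scale (edgeR unadjusted p = 0.0897, adjusted p = 0.862), and at -0.11 without D + Q sham mouse 4. Acadl was at 289.7, 329, 295, 272 and 254 CPM in vehicle sham, 209, 208, 169.7, 169 and 171 CPM in vehicle MOV, 305, 294, 266, 341 and 282 CPM in D + Q sham and 169, 170.0, 163, 164 and 165 CPM in D + Q MOV mice. Decr1 was at 119, 122, 129, 103 and 107 CPM, 75.6, 82.2, 71.0, 71.3 and 68.5 CPM, 118, 122, 116, 144 and 111 CPM and 69.7, 71.1, 69.8, 67.9 and 64.2 CPM in the same groups. For both, sham and MOV mice separated in each treatment. The 6 genes of the import group and the 10 of beta-oxidation were all negative under TMM scaling with all mice, with medians of -0.17 and -0.11. Acadm turned positive in several other fits (total counts, DESeq2, RLE factors, either other count minimum and several that leave out 1 mouse), Cpt2 without vehicle MOV mouse 1, and Acadm, Hadh and Cpt2 with scaling to fibre genes. The 17 genes of the TCA cycle had 8 negative and 9 positive values and a median of 0.00079. Their split was 14 and 3 without vehicle sham mouse 2 or vehicle MOV mouse 4, 12 and 5 with limma-voom, 6 and 11 with total counts and 4 and 13 with scaling to fibre genes, and the groups were not tested against each other. In the interaction the slow fibre genes had a median of 0.50, with 7 of 8 positive, and the endothelial genes -0.14, with 10 of 10 negative, and 0 of either list were called.

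Ratios of paired enzymes within a mouse do not depend on library scaling. The log2 ratio of Pdk4 to Pdk2 counts was -0.050 ± 0.49 in vehicle sham, 0.56 ± 0.49 in vehicle MOV, 0.53 ± 0.25 in D + Q sham and 0.46 ± 0.21 in D + Q MOV mice (SD, n = 5 each). Vehicle sham mice 1 to 4 lay at or below -0.096 and mouse 5 at 0.80. D + Q sham exceeded vehicle sham by 0.58 (two-sided exact permutation test, p = 0.0476, adjusted p = 0.286 over the 12 ratio comparisons) and vehicle MOV exceeded vehicle sham by 0.61 (two-sided exact permutation test, p = 0.0794, adjusted p = 0.286). The log2 ratio of Idh2 to Idh3a was -1.04 ± 0.12, -0.59 ± 0.50, -0.73 ± 0.30 and -0.53 ± 0.11 in the same order. Its difference between D + Q sham and vehicle sham was 0.31 (two-sided exact permutation test, p = 0.0476, adjusted p = 0.286), and between vehicle MOV and vehicle sham 0.45 (two-sided exact permutation test, p = 0.0952, adjusted p = 0.286). The ratio of the ATP-forming subunit Sucla2 to the GTP-forming subunit Suclg2 lay between 2.45 and 2.74 on the log2 scale in all 20 mice, with differences between groups from -0.073 to 0.030 and the smallest p at 0.19 (two-sided exact permutation test). None of the 12 comparisons passed adjustment.

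Of 65 other genes of pyruvate, TCA and fatty acid metabolism, 41 fell and 10 rose with MOV in vehicle mice and 45 fell and 11 rose in D + Q mice, at an adjusted p under 0.05 in edgeR. Of all genes tested 29.8% and 30.9% were called lower and 30.7% and 34.4% higher. The largest rises with vehicle were those of Pdk3, a pyruvate dehydrogenase kinase (2.72), Cpt1c, a brain-type carnitine palmitoyltransferase (2.37), and Ucp2, an uncoupling protein of immune cells among others (2.28). They rose with D + Q by 3.20, 1.69 and 2.31, again the 3 largest rises. The largest falls with vehicle were those of Pdp1, a pyruvate dehydrogenase phosphatase (-1.45), Plin5, a lipid droplet protein (-1.30), and Pdpr, a regulatory subunit of the phosphatase (-1.24). With D + Q they were those of Acot2, a mitochondrial acyl-CoA thioesterase (-1.58), Plin5 (-1.51) and Slc27a1, a fatty acid transporter (-1.30). Among 8 regulators 6 fell and 1 rose in each treatment. Between D + Q and vehicle 0 of the 65 were called in MOV muscle and 0 of 64 in sham muscle, with 8 lower and 2 higher, and 11 lower and 2 higher, at an unadjusted p under 0.05 in edgeR. Over all genes 4.61% were lower and 4.19% higher at that threshold in MOV muscle, and 4.8% and 5.39% in sham muscle.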

How the data were processed

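RNA-seq of plantaris muscle of 20 mice, 5 mice per group as named in the labels, was analysed. The authors aligned reads with STAR 2.7.8a to GRCm39 in Partek Flow and deposited 1 table of estimated counts per gene made by expectation-maximization, in which 28.69% of values are not whole and the smallest row sum is 10. Counts were rounded to whole numbers here.

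Each comparison was tested on its own 10 mice with edgeR 4.0.16 (TMM, robust quasi-likelihood, R 4.3.3), for genes that reached 10 counts in 5 or more mice, and the interaction on all 20 mice. The p-values were adjusted by Benjamini-Hochberg over all genes tested, with a threshold of 0.05, and measure the spread between separate mice. Ratios of 2 genes (0.5 added to each count) were tested by two-sided exact permutation, where the smallest possible p is 0.00794. In simulated data for vehicle MOV against vehicle sham (14601 genes), the share called of 200 genes with a log2 change of 1 was 72%, and of 200 with a change of 0.5 it was 32%. Only those 200 genes changed in a simulation, whereas 8831 were called in the data. They were drawn from all genes tested, weakly expressed ones included, so the shares do not describe the 41 genes. Over the better counted genes, no pair of mice of a group differed by less than counting noise (ratio of variances 7.36 or more).

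The genes, their roles and the marker lists were chosen with earlier results of these data known. Values in every mouse are given for Pdk4, Cs, Cpt1b, Fabp3 and Ucp3, for the lowest and highest log2 fold change of each role group with 3 or more genes in either MOV comparison, and for the 5 smallest p-values of the other comparisons. Since none rose, the highest value stands for the largest rise. Alternatives were DESeq2 1.42.0, limma-voom 3.58.1 with sample weights, RLE and upper-quartile factors, total counts, other count minimums (none or 50), 1 fit of all mice, a replicate block, a pseudocount of 1 and leaving out each mouse. Scaling to muscle fibre genes was added after the data were seen. Promoters are RefSeq sequences matched by symbol.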

Additional observations from a re-analysis of the deposited data

Results flagged for a closer look

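In 8 of 164 groups of 5 mice (41 genes in 4 groups) 1 mouse stood apart from the others by Dixon's ratio (above 0.71), where about 8.2 are expected by chance at 1 in 20. Pdk4 was at 743.5 CPM in vehicle sham mouse 5, against 361.6 to 434 CPM in the other 4. Cs was at 914.8 CPM in D + Q sham mouse 1, against 786.6 to 819.9 CPM. The other 6 are all vehicle sham mouse 2. There Idh3b was at 577.9 CPM (448 to 471.4 CPM in the others), Sdhc at 329.3 CPM (259.7 to 276 CPM) and Fh1 at 276.2 CPM (226.9 to 233.2 CPM). Mdh2 was at 851.6 CPM (679.6 to 713.5 CPM), Cpt2 at 77.97 CPM (57.03 to 62.22 CPM) and Etfdh at 185.3 CPM (150.5 to 155.5 CPM). The genes of 1 mouse share its library, and why it stands apart was not tested.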

How the results depend on the processing

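Between MOV and sham the choice of scaling moved the counts of calls most of the settings tried, whereas between D + Q and vehicle and in the interaction leaving out single mice moved the counts of genes at an unadjusted p under 0.05 more than scaling did. With total counts the median log2 fold change of the 41 genes between MOV and sham was -0.27 with vehicle and -0.30 with D + Q, and with vehicle Pdhb (0.057), Acads (0.046), Pdk4 (0.21), Idh2 (0.023) and Fabp3 (0.20) turned positive. With scaling to muscle fibre genes, chosen after seeing the data, the medians were -0.11 and -0.10. Then 9 genes were called lower and 2 higher with vehicle, and 15 lower and 1 higher with D + Q. Of all genes, 10033 of 14601 and 11014 of 14913 were called in either direction on that scale. Signs then turned with vehicle for Pdk4 (0.36), Fabp3 (0.36), Idh2 (0.18), Pdhb (0.22), Acads (0.21), Slc25a20 (0.078), Sdhc (0.047), Hadh (0.033), Mdh2 (0.018), Cpt2 (0.018), Etfa (0.0088) and Dlst (0.0080), and with D + Q for Pdhb (0.18), Acads (0.16), Sdhc (0.14), Mdh2 (0.12), Dlst (0.081), Fabp3 (0.077), Cpt2 (0.045), Sdhd (0.044) and Hadh (0.039). The median over all genes moved too, from -0.015 to 0.53 with vehicle and from 0.023 to 0.59 with D + Q. Relative to that median the set lay at -0.64 with vehicle and -0.69 with D + Q on both scales. DESeq2 called 2 genes lower between D + Q sham and vehicle sham, where it called 133 of 13926 genes in either direction.

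Leaving out 1 mouse gave 37 to 39 genes called lower with vehicle and 41 in every case with D + Q between MOV and sham, and 0 to 1 called higher between D + Q sham and vehicle sham. Differences of log2 ratios changed sign in 4 comparisons that had not passed the test. Pdk4 to Pdk2 ran from -0.15 to 0.018 between D + Q MOV and D + Q sham and from -0.22 to 0.095 between D + Q MOV and vehicle MOV. In the latter comparison Sucla2 to Suclg2 ran from -0.024 to 0.047 and Idh2 to Idh3a from -0.14 to 0.19.

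With replicate numbers fitted as a block, 38 and 41 genes were called lower with MOV and 0 in the other comparisons, with a median of -0.65 in vehicle mice, and no call of a count changed. Same-numbered mice did not deviate together (correlations of -0.15 to 0.19), so the numbers are taken not to pair the mice, and sign flips of 5 pairs cannot go below p = 0.0625 (exact). For named genes, 943 values kept direction and side of the threshold under the other settings, while 54 lost significance, 2 gained it and 26 changed sign. With 1 mouse left out 1070 kept both, 5 lost significance (all Ucp3 between vehicle MOV and vehicle sham) and 3 gained it (Idh2 and Fabp3 in that comparison and Pdk4 between D + Q sham and vehicle sham). Pdk4 ran from -0.45 to 0.086 between vehicle MOV and vehicle sham and changed sign in 2 of these fits. The 41 genes had 488 to 23456 counts per mouse. Over the better counted genes of the whole table, variance between mice of a group was at least 7.36 times that of counting. This ratio was not computed for the 41 genes alone.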
